A study of Mus musculus with 6 samples.

Results

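The nuclear pore genes encode the nucleoporins, the proteins that build the channels through the nuclear envelope, and several of them are major carriers of the sugar O-GlcNAc. The members were a fixed list of 30 mouse symbols, matched by Ensembl identifier to the rows of the deposited count table. A row was found for 29 of them, of 12027 genes with a row. Nup58, a component of the central channel, had no row under its identifier, so its level was not analysed here. A gene annotated over much of the same locus, Gm49336, does have a row, and whether it holds the reads of Nup58 was not settled, so the members and the FG genes counted here are those matched by name. Levels measured were of messenger RNA in whole liver, and neither the proteins nor their O-GlcNAc were measured.

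Liver was taken from male C57BL/6 mice, 8 weeks old per the labels, after partial hepatectomy (PHX), an operation that takes out some lobes so that the rest regrows. The groups were OGT-KO (genotype OGT-/y) and its floxed control (OGTfl/y) at 28 days, OGA-KO (OGA-/-) and its floxed control (OGAfl/fl) at 14 days, and the same OGA pair at 28 days. OGT is the enzyme that adds O-GlcNAc to proteins and OGA the enzyme that removes it, and the labels place each deletion in hepatocytes. The Cre driver is not given in the sources used here, and the other cells of the liver keep the gene. Each group was 1 library of RNA pooled from 3 mice, so a comparison of groups is a comparison of 2 pools, with no spread between replicates of a group.

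A pore is built from repeated subcomplexes. The Y complex coats both faces of the envelope, the inner ring lines the channel wall, and membrane nucleoporins anchor the ring. Filaments on the cytoplasmic side and a basket on the nuclear side dock and release cargo. Nucleoporins rich in phenylalanine-glycine (FG) repeats fill the channel, where transport receptors bind them, and these FG nucleoporins are the classical O-GlcNAc proteins of the nuclear envelope. In dividing cells pores are taken apart and rebuilt, and new pores are inserted in interphase.

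Total counts ranged from 20433100 to 29327722 per library, and effective sizes after TMM scaling (trimmed mean of M values, which corrects for a few abundant genes) from 23083044 to 27922132. Counts of 1 gene are not directly comparable across libraries. The effective size was 27922132 in OGT-KO and 23083044 in OGT control, so a gene can have more counts in OGT-KO and yet a log2 ratio below 0. Levels below are in CPM, counts per 1000000 of the effective size. Oga checked the OGA labels, with 282 counts in OGA-KO against 1525 in control at 14 days, and 317 against 1760 at 28 days. Ogt had 1205 counts in OGT-KO against 1339 in OGT control, a log2 ratio of -0.43 that passed the main test, described below, as lower. By library totals the ratio of Ogt was -0.06, so that it gave no clear check of the OGT-KO label. Oga was lower in OGT-KO too, with 1023 counts against 1400 (log2 -0.73, and -0.36 by library totals). Markers of other cells moved with OGT-KO. Of 16 cell division markers listed 10 had a row, and all 10 passed the test described below as higher. Their summed level was 208 CPM in OGT-KO, against 27.0 CPM in OGT control and 17.1 to 24.8 CPM in the OGA libraries. Higher too were 8 of 8 stellate and matrix markers (2296 against 276 CPM) and 7 of 8 macrophage markers (845 against 233 CPM). So were the 5 cholangiocyte markers with a row, of 6 listed (386 against 62.5 CPM). The 3 neutrophil markers with a row, of 6 listed, were also higher (19.0 against 2.77 CPM). Of 6 endothelial markers 1 rose and 3 fell (129.5 against 148 CPM), and of 10 hepatocyte markers 7 fell (61748 against 92642 CPM). Scaled by library totals, the endothelial balance turned, with 3 higher and 1 lower (177 against 156 CPM), and of the hepatocyte markers 2 were higher and 4 lower (84380 against 97857 CPM). Of 6 T and B cell markers listed 0 had a row, and none of the markers above with a row was at 0 in either OGT library. Their part in the values of the pore genes was not tested, and in whole liver fewer cells of a type and less RNA per cell cannot be told apart.

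Of the nuclear pore genes, more rose than fell in OGT-KO against OGT control at 28 days. Those that rose include 4 of 5 inner ring genes, 3 of 4 membrane anchors and 3 of 9 Y complex genes. Of the FG genes 2 of 9 rose, and of the cytoplasmic filament genes none passed the test. The shares of the Y complex and of the FG genes lie near the 26.1% of all genes called higher. Differences between such small sets were not tested. Of the 29 genes, 12 rose and 2 fell by the edgeR quasi-likelihood test with Benjamini-Hochberg adjustment over all genes. The background was wide, since the same test called 26.1% of all 12026 genes tested higher and 26.6% lower, 52.7% in all. The share of pore genes called (48.3%) was near that background, with 41.4% higher and 6.9% lower. Their median log2 ratio was 0.27, against 0.00 for all genes, and 22 of 29 stood above 0, where 49.8% of all genes did. By library totals, a scaling that raises the median of all genes by 0.36, the pore median was 0.64 and 26 of 29 stood above 0. By that scaling 20 pore genes were called higher and none lower, where 44.4% of all genes were called higher, and the 20 include 7 of 9 FG genes and 3 of 4 filament genes.

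By size, Nup107 and Nup133 were at least 2-fold higher with at least 1 CPM in the higher library, which is 6.9% of the 29, and no other member was; none was 2-fold lower. Of all genes, 16.4% were 2-fold higher and 11.7% lower by that rule. At 1.5-fold 8 were higher and 1, Nup210, lower, where 47.0% of all genes passed in either direction. The other 27 genes lay between -0.68 and 0.99. With a single pair of OGT libraries, the test takes its spread from the OGA libraries, which leave 1 residual degree of freedom, and assumes that the OGT libraries vary alike. Without a term for the difference between the OGT and OGA lines, 7 of the 12 genes still rose and none fell. The 7 were Nup107, Nup133, Nup93, Nup205, Ndc1, Aaas and Tpr. That fit called 13.4% of all genes higher, and 25.2% in either direction. The DESeq2 Wald test called Tpr alone, where it called 24.0% of all genes.

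**Figure D1:**
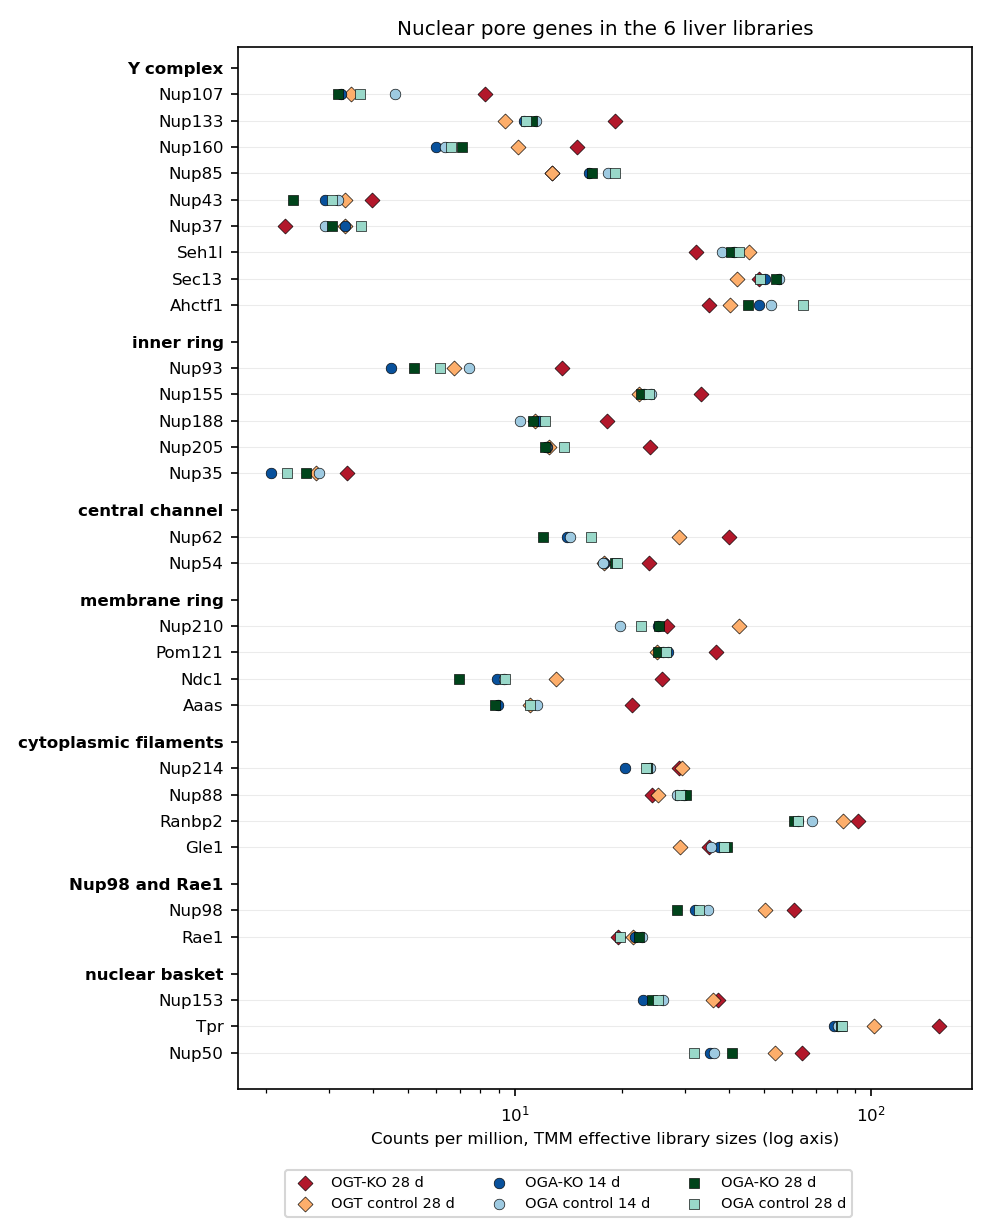
Level of each of the 29 nuclear pore genes in each of the 6 libraries, in CPM on a log axis, by pore subcomplex. Each point is 1 library (diamonds, the OGT pair; circles, the OGA pair at 14 days; squares, the OGA pair at 28 days); the OGT-KO point of Tpr stands at 155 CPM, against 102 CPM in OGT control and 78.8 to 83.0 CPM in the OGA libraries.

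The DNA before the start sites of these genes was read from RefSeq (build GRCm38.p6, another build than the mm39 named in the submitters' processing notes), in windows of 250 bases that end at the start site. Windows were found for 26 of the 30 symbols, with Nup58, which had no row of counts, among them. The perfect palindrome bound by nuclear respiratory factor NRF1, spelled by the capitals of the windows of Nup107, Nup62 and Nup50 printed here, occurred before 3 of these 26 genes (Nup107, Nup62 and Nup50), and before 0.877% of 27025 genes searched. The cyclic AMP response element TGACGTCA occurred before Nup133 and Nup214, and before 1.77% of all genes. The E2F motif TTTCCCGC occurred before Nup210 alone, and before 1.03% of all genes. In all 8 motifs were searched, and the other 5 were found as follows. The ETS motif CCGGAAGT occurred before 4 members (3.23% of all genes) and the E-box CACGTG before 4 (6.86%). The cell cycle element CHR, TTTGAA, occurred before 6 members (18.3%), the CCAAT box, CCAAT, before 9 (37.5%) and the GC box, GGGCGG, before 16 (35.4%). Both strands were searched, no capitals in the 5 windows shown overlap another motif searched, and the motifs were chosen after letters and results had been seen. The 5 windows are shown because they belong to both genes past 2-fold, to the member with the lowest ratio in OGT-KO, and to the 2 FG genes with the palindrome. Capitals mark the named motif, and each is written 5′ to 3′ on the gene's strand.
Nup107 (chr10:117792706-117792955, minus strand, NRF1 palindrome): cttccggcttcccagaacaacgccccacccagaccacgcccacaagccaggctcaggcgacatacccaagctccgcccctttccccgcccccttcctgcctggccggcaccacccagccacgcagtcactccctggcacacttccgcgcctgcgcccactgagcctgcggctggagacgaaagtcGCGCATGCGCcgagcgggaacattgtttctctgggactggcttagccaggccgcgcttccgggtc
Nup62 (chr7:44815838-44816087, plus strand, NRF1 palindrome): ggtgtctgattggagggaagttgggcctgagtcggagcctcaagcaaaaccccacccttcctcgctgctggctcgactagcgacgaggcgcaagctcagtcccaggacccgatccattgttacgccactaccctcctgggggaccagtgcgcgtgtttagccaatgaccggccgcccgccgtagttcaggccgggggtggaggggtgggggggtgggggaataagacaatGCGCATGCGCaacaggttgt
Nup50 (chr15:84923178-84923427, plus strand, NRF1 palindrome): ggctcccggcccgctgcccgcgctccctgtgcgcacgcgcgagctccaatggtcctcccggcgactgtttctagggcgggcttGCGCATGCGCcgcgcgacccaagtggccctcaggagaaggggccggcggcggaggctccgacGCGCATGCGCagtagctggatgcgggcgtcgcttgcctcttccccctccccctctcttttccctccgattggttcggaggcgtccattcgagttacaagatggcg
Nup133 (chr8:123949266-123949515, minus strand, cyclic AMP response element): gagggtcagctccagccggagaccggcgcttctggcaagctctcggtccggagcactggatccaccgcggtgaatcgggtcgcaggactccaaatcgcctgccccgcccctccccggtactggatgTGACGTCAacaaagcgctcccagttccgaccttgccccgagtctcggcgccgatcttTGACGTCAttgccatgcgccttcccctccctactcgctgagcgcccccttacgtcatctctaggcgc
Nup210 (chr6:91116827-91117076, minus strand, E2F motif): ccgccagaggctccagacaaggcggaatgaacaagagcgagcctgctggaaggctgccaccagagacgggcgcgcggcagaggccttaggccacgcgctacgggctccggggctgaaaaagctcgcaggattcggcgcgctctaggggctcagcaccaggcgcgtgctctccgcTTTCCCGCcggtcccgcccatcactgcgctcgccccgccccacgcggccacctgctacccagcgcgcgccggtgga
A match is a run of letters and not a measured binding site.

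The Y complex is the outer coat of the pore. Of its 9 genes 3 rose and 1 fell in OGT-KO, with a median log2 ratio of 0.20. The same test called 26.1% of all genes higher and 26.6% lower. These shares are the background for each subcomplex and for the FG genes below. Nup107 (ENSMUSG00000052798), the subunit at the stem of the Y, had 230 counts in OGT-KO against 80 in OGT control, and 88 and 113 in OGA-KO and control at 14 days and 79 and 96 at 28 days. The OGT-KO library stood above all 5 others. The log2 ratio was 1.23 (95% counting interval 0.88 to 1.63, edgeR adjusted p = 0.00922). Nup133 (ENSMUSG00000039509), the neighbouring stem subunit, had 534 counts against 217 in the OGT pair, 287 against 281 in the OGA pair at 14 days and 276 against 281 at 28 days. Again OGT-KO alone stood apart, at a log2 ratio of 1.02 (0.79 to 1.26, edgeR adjusted p = 0.00401). Nup160, which joins the stem to the arms, rose by less (417 against 236 counts, log2 0.54, edgeR adjusted p = 0.0409).

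Among the other subunits of the Y none rose. Seh1l, which also serves in nutrient sensing at the lysosome, fell, with 898 counts in OGT-KO against 1048 in OGT control (log2 -0.50, -0.63 to -0.37, edgeR adjusted p = 0.0163). Its counts were 1113 against 933 in the OGA pair at 14 days and 997 against 1111 at 28 days. Without the line term the log2 value of Seh1l was -0.42 with an edgeR adjusted p = 0.142, and by library totals -0.13 with 0.377. Nup85, the partner of Seh1l, had 355 counts in OGT-KO against 293 in OGT control (log2 0.00). Nup37 had low counts, 63 against 77 in the OGT pair, 90 against 72 at 14 days and 76 against 97 at 28 days (OGT-KO log2 -0.55, -1.07 to -0.06, edgeR adjusted p = 0.186). Nup43 stood at 0.25 and Sec13, which is also a coat protein of vesicles leaving the endoplasmic reticulum, at 0.20. Ahctf1 (ELYS), which seeds new pores on chromatin after mitosis, had 982 counts against 930 (log2 -0.20, edgeR adjusted p = 0.348). In the OGA libraries Ahctf1 had 1311 against 1282 counts at 14 days and 1116 against 1690 at 28 days. These 6 genes thus ranged from -0.55 to 0.25 in OGT-KO, below each of the 3 that rose.

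The inner ring, the scaffold around the central channel, had all 5 genes above 0 in OGT-KO, and 4 of them rose, with a median log2 ratio of 0.67. Nup93, which holds the FG nucleoporins of the channel in place, had 378 counts in OGT-KO against 156 in OGT control, 121 against 182 in the OGA pair at 14 days and 129 against 161 at 28 days. OGT-KO was the highest library and both OGA-KO libraries the lowest. The OGT-KO log2 ratio was 0.99 (0.73 to 1.28, edgeR adjusted p = 0.0148). Nup205, a large scaffold subunit, had 668 counts against 287 in the OGT pair, 333 against 300 at 14 days and 300 against 359 at 28 days (log2 0.94, 0.74 to 1.15, edgeR adjusted p = 0.0047). The paralogous scaffold Nup188 rose as well, with 507 counts against 262 in the OGT pair, 315 against 253 at 14 days and 278 against 317 at 28 days (log2 0.67, edgeR adjusted p = 0.0205). Nup155, which links the ring to the membrane, rose with 927 against 514 counts (log2 0.57, edgeR adjusted p = 0.00999). Nup35, a small FG-bearing member of the ring, was the exception, with 94 against 64 counts in the OGT pair, 56 against 69 at 14 days and 64 against 60 at 28 days (log2 0.27, -0.19 to 0.76, edgeR adjusted p = 0.518). Its interval at these counts held both 0 and the value of Nup188, so that neither could be told from it at this depth. Nup35 shares 3.89% of its exon bases with Dusp19 on the same strand, which had 57 against 98 counts in the OGT pair.

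The membrane ring anchors the pore in the envelope, and all 4 of its genes passed the test, 3 higher and 1 lower. Ndc1, a membrane nucleoporin needed for pore assembly, had 722 counts in OGT-KO against 301 in OGT control, 240 against 229 in the OGA pair at 14 days and 172 against 245 at 28 days (log2 0.98, 0.79 to 1.19, edgeR adjusted p = 0.00655). Aaas (ALADIN), which Ndc1 recruits to the pore, had 597 against 255 in the OGT pair, 242 against 283 at 14 days and 218 against 288 at 28 days (log2 0.95, 0.74 to 1.17, edgeR adjusted p = 0.00403). For both genes the OGT-KO library stood clear of the other 5. Pom121, an FG membrane protein of early interphase assembly, had 1023 against 577 in the OGT pair, 728 against 640 at 14 days and 624 against 696 at 28 days (log2 0.55, 0.40 to 0.70, edgeR adjusted p = 0.0119). Of the exon bases of Pom121, 11.9% overlap Nsun5 on the other strand (GENCODE M21, of GRCm38), and whether the counting used strand is not given in the sources used here. Nsun5 itself had a log2 ratio of -0.02 in OGT-KO.

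Nup210 (ENSMUSG00000030091), the large membrane nucleoporin whose bulk lies in the lumen of the envelope, went the other way. It had 744 counts in OGT-KO against 984 in OGT control, 682 against 482 in the OGA pair at 14 days and 626 against 591 at 28 days. It was the lowest ratio of the 29 in OGT-KO (log2 -0.68, -0.82 to -0.54, edgeR adjusted p = 0.00749). The library that stood apart was OGT control, at 42.6 CPM, while OGT-KO at 26.6 CPM lay just above the 19.7 to 25.3 CPM of the OGA libraries. Against OGA control at 28 days the log2 ratio of OGT-KO was 0.24, the reverse direction. Without the line term it was -0.19 with an edgeR adjusted p = 0.779.

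The FG nucleoporins, to which the best-known O-GlcNAc carriers belong, gave 2 calls among the 9 with a row, Pom121 above and Nup54 of the central channel. Their median log2 ratio was 0.27 in OGT-KO and that of the 20 other members 0.41, of which 10 rose and 2 fell. The difference between both sets was not tested. Nup62 (ENSMUSG00000109511), a classical carrier of the sugar in the channel, had 1113 counts in OGT-KO against 666 in OGT control, 378 against 349 in the OGA pair at 14 days and 297 against 427 at 28 days. Both OGT libraries, at 39.9 and 28.9 CPM, stood above the 12.0 to 16.3 CPM of the OGA libraries. The OGT-KO log2 ratio was 0.47 (0.33 to 0.61) and did not pass (edgeR adjusted p = 0.066). Nup54, its partner in the channel, rose, with 665 against 410 counts in the OGT pair, 480 against 434 at 14 days and 473 against 505 at 28 days (log2 0.42, 0.24 to 0.60, edgeR adjusted p = 0.0397). Nup62 shares 3.4% of its exon bases with Il4i1 on the same strand, which had 32 against 54 counts in the OGT pair, and 2.87% with Atf5 on the other strand. Atf5 had more counts than Nup62, 4744 against 7029 in the OGT pair and 8577 to 16202 in the OGA libraries, and without knowledge of strand use their reads in the shared bases cannot be told apart.

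Nup98 and Rae1, which bind each other and take part in RNA export, did not pass the test. The gene Nup98 encodes a precursor that is cut into an FG protein and a Y complex subunit. It had 1700 counts in OGT-KO against 1166 in OGT control, 863 against 851 in the OGA pair at 14 days and 707 against 863 at 28 days (OGT-KO log2 0.27, 0.16 to 0.38, edgeR adjusted p = 0.07). Both OGT libraries were again above all OGA libraries. Rae1 had 542 against 495 counts in the OGT pair, 586 against 556 at 14 days and 550 against 516 at 28 days (log2 -0.14, edgeR adjusted p = 0.44). Of these 2 genes, 1 had an unadjusted p under 0.05 in the edgeR test, and the share of all genes at that threshold is not given here. DESeq2 called 0 of them, where it called 24.0% of all genes.

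The cytoplasmic filaments, where exported RNA is released, had a median log2 ratio of 0.05. Of their 4 genes the edgeR test called 0, where it called 52.7% of all genes. DESeq2 called 0 too, where it called 24.0% of all genes. In edgeR 1 had an unadjusted p under 0.05, and the share of all genes at that threshold is not given here. Nup214, an FG filament protein, had 809 counts in OGT-KO against 681 in OGT control, 551 against 585 in the OGA pair at 14 days and 582 against 609 at 28 days (log2 -0.03, -0.17 to 0.12). Its binding partner Nup88 had 679 against 581, 804 against 699 and 747 against 761 counts in these pairs (OGT-KO log2 -0.05, -0.21 to 0.11). Ranbp2, the giant FG protein of the filaments that docks the Ran GTPase-activating protein, had 2563 against 1930, 1689 against 1670 and 1498 against 1628 counts (OGT-KO log2 0.13, 0.05 to 0.22, edgeR adjusted p = 0.287). Gle1, the activator of the helicase that strips export factors from RNA, stood at 0.27 (edgeR adjusted p = 0.0764). The counting intervals of Nup214 and Nup88 exclude log2 ratios as high as those of Nup107 or Ndc1, as far as counting error goes.

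In the nuclear basket 1 of 3 genes rose. Tpr, the coiled-coil protein that forms the basket, had 4321 counts in OGT-KO against 2354 in OGT control, 2129 against 1983 in the OGA pair at 14 days and 2031 against 2173 at 28 days. Its OGT-KO log2 ratio was 0.60 (0.53 to 0.67, edgeR adjusted p = 0.00469), on the largest counts of any member. Of its exon bases 1.94% overlap Prg4 on the other strand, which had 6291 against 3503 counts in the OGT pair and a log2 ratio of 0.57, and reads of the shared bases cannot be told apart if strand was not used. Nup153, the FG protein that fixes the basket to the ring, had 1035 against 830, 619 against 637 and 598 against 658 counts in the same pairs (OGT-KO log2 0.04, -0.09 to 0.18, edgeR adjusted p = 0.766). Nup50, a mobile FG partner of importins, had 1781 against 1237, 955 against 889 and 1008 against 833 counts (OGT-KO log2 0.25, 0.15 to 0.36, edgeR adjusted p = 0.215). For Nup153 and Nup50 both OGT libraries lay together, above the OGA libraries.

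**Figure D2:**
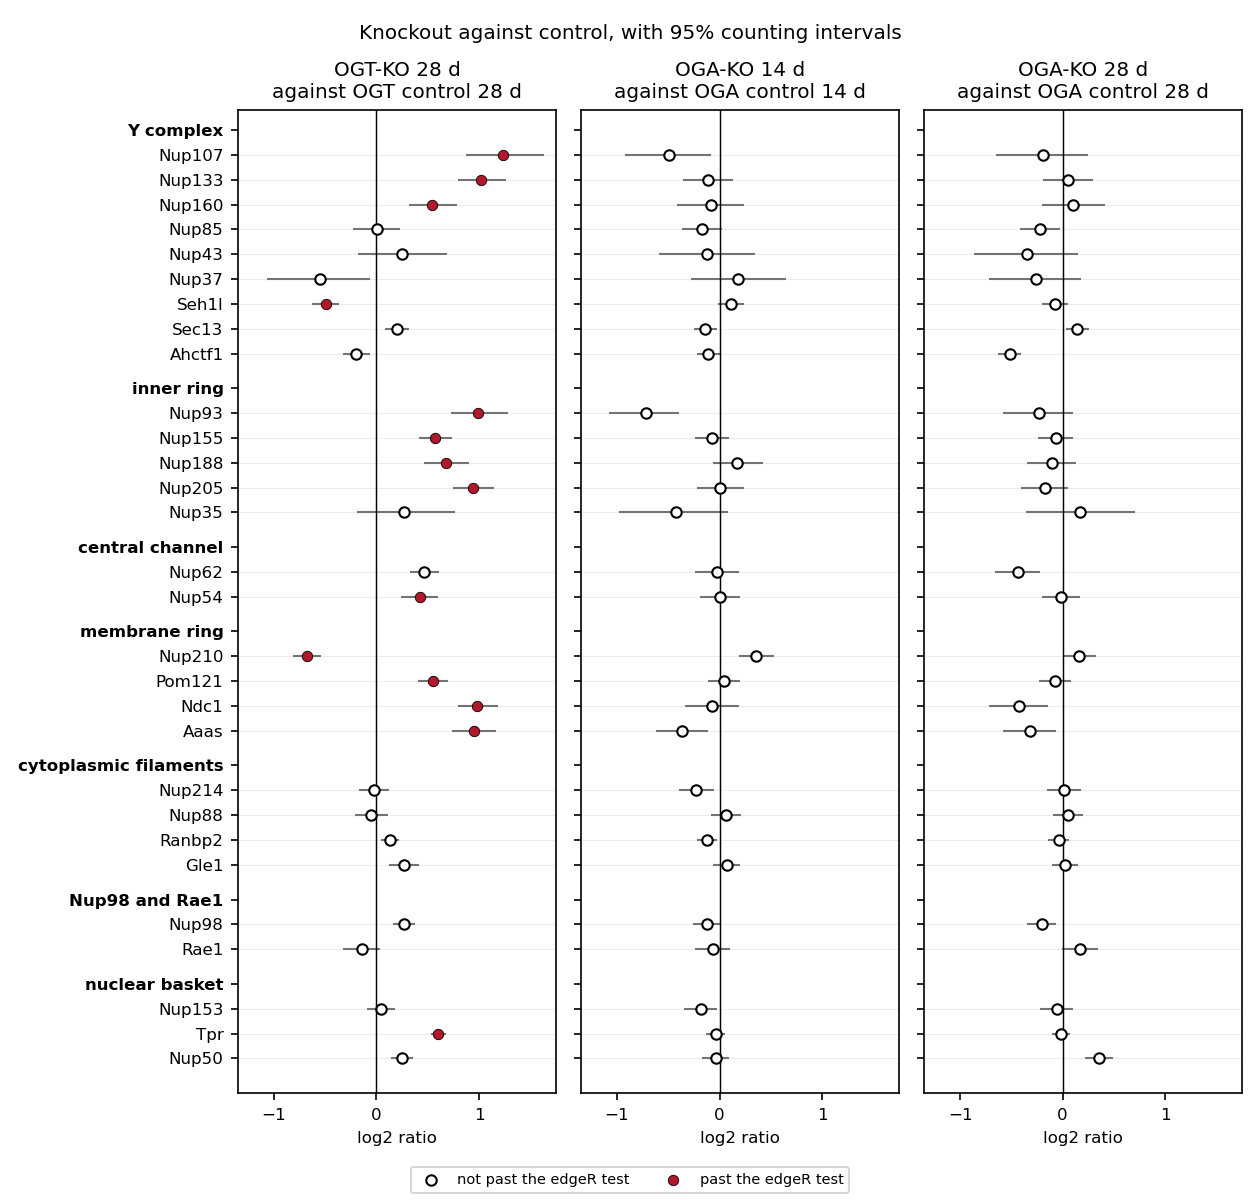
Log2 ratio of each nuclear pore gene in the 3 knockout and control pairs (columns), with horizontal lines for 95% counting intervals. Filled points passed the edgeR test, which for OGT-KO fills 12 points above 0 and 2 below on TMM sizes (20 above and none below by library totals); the test of OGA-KO is over both times and fills none.

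The OGA-KO pairs ask the same of the enzyme that takes the sugar off. Pore genes were close to control at both times, with no member past the test. The edgeR test of the OGA-KO effect over both times called 0 of 29 (lowest adjusted p = 0.329), where it called 0.0333% of all genes. By unadjusted p under 0.05 there were 4 (Ahctf1, Nup93, Nup210 and Aaas). The share of all genes under that unadjusted threshold is not given here, so the 4 cannot be set against a background. DESeq2 called 0, with the adjusted p of 10 members not given. No member was 2-fold different at either time, where 0.839% of all genes were at 14 days and 2.57% at 28 days. At 1.5-fold Nup93 alone was lower at 14 days, where 4.63% of all genes passed in either direction. The median log2 ratio was -0.07 at 14 days and -0.07 at 28 days, against 0.00 for all genes, and 9 and 10 of 29 stood above 0, where 50.3% and 50.8% of all genes did. The median absolute log2 ratio was 0.11 at 14 days and 0.16 at 28 days, close to the 0.12 and 0.16 of all genes.

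Single members stood out by size in the OGA pairs without passing the test. At 14 days Nup93 was lowest (log2 -0.72, -1.07 to -0.39, from the 121 and 182 counts above), followed by Nup107 (-0.49) and Nup35 (-0.43). At 28 days the same genes were at -0.23, -0.19 and 0.17. Highest at 14 days were Nup210 (0.36, 0.19 to 0.53), Nup37 (0.18) and Nup188 (0.17), and at 28 days these stood at 0.16, -0.26 and -0.11. At 28 days Ahctf1 was lowest (-0.52, -0.63 to -0.41), where its control library had the highest level of the 6 at 64.6 CPM. Nup62 (-0.44, -0.66 to -0.22) and Ndc1 (-0.42, -0.72 to -0.14) followed, and both were near 0 at 14 days (-0.03 and -0.07). Nup50 was highest at 28 days (0.36, 0.22 to 0.49) and at -0.04 at 14 days, with Rae1 and Nup35 next at 0.17 each. Aaas was lower at both times (-0.36 and -0.32) and Nup210 higher at both times. In the OGA-KO library of 28 days the 9 pancreas markers with a row summed to 195 CPM, against 27.3 CPM in its control, and 7 of them were at 0 in every other library. The median of the cell division markers was -0.23 at 14 days and -0.48 at 28 days. Stellate and matrix, cholangiocyte and macrophage markers were mostly above 0 in OGA-KO. At 14 days the median was 0.46 for the stellate and matrix markers (8 of 8 above 0), 0.50 for the cholangiocyte markers (5 of 5) and 0.21 for the macrophage markers (5 of 8), and -0.21 for the neutrophil markers (0 of 3). At 28 days these medians were 0.16 (6 of 8), 0.31 (4 of 5), 0.30 (7 of 8) and 0.85 (3 of 3). For the endothelial markers the median was 0.13 at 14 days (6 of 6 above 0) and 0.03 at 28 days (3 of 6). For the hepatocyte markers it was 0.04 at 14 days (6 of 10) and -0.002 at 28 days (5 of 10). The part of any of these markers in the ratios of the pore genes was not tested.

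The OGT-KO effect and the OGA-KO effect were set against each other in the same edgeR fit. By this contrast 11 of 29 pore genes were higher in OGT-KO relative to OGA-KO and 2 lower, where 21.4% and 22.7% of all genes were. The 11 were 9 of the genes that rose in OGT-KO (Nup107, Nup133, Nup93, Nup155, Nup205, Pom121, Ndc1, Aaas and Tpr), together with Nup62 and Nup98, and the 2 were Seh1l and Nup210. Without the line term 6 were higher and none lower. Of all genes 1395 were called higher and 1371 lower there, 23.0% in either direction. DESeq2 called 0 of 29, where it called 17.1% of all genes. In edgeR 15 had an unadjusted p under 0.05, and the share of all genes at that threshold is not given here.

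The OGT and OGA controls of 28 days are both floxed livers without knockout, and they were not alike in pore genes. At least 1.5-fold higher in OGT control than in OGA control were Nup210 (log2 0.91), Nup62 (0.82), Nup50 (0.75), Nup160 (0.62) and Nup98 (0.61), and 1.5-fold lower were Ahctf1 (-0.68) and Nup85 (-0.59). Of all genes 13.3% were higher and 13.8% lower by that rule; no pore gene was 2-fold different, where 10.4% of all genes were. In 11 of 29 genes both OGT libraries stood above all 4 OGA libraries, and in 5 below, where 24.9% and 26.3% of all genes did. The 11 hold 6 of the 9 FG genes (Nup62, Nup98, Nup153, Nup214, Nup50 and Ranbp2). OGT-KO alone was above the other 5 libraries in 19 of 29 genes, where 36.9% of all genes were, and below them in 5, where 36.7% were. Line, mouse cohort and library cannot be told apart here.

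**Figure D3:**
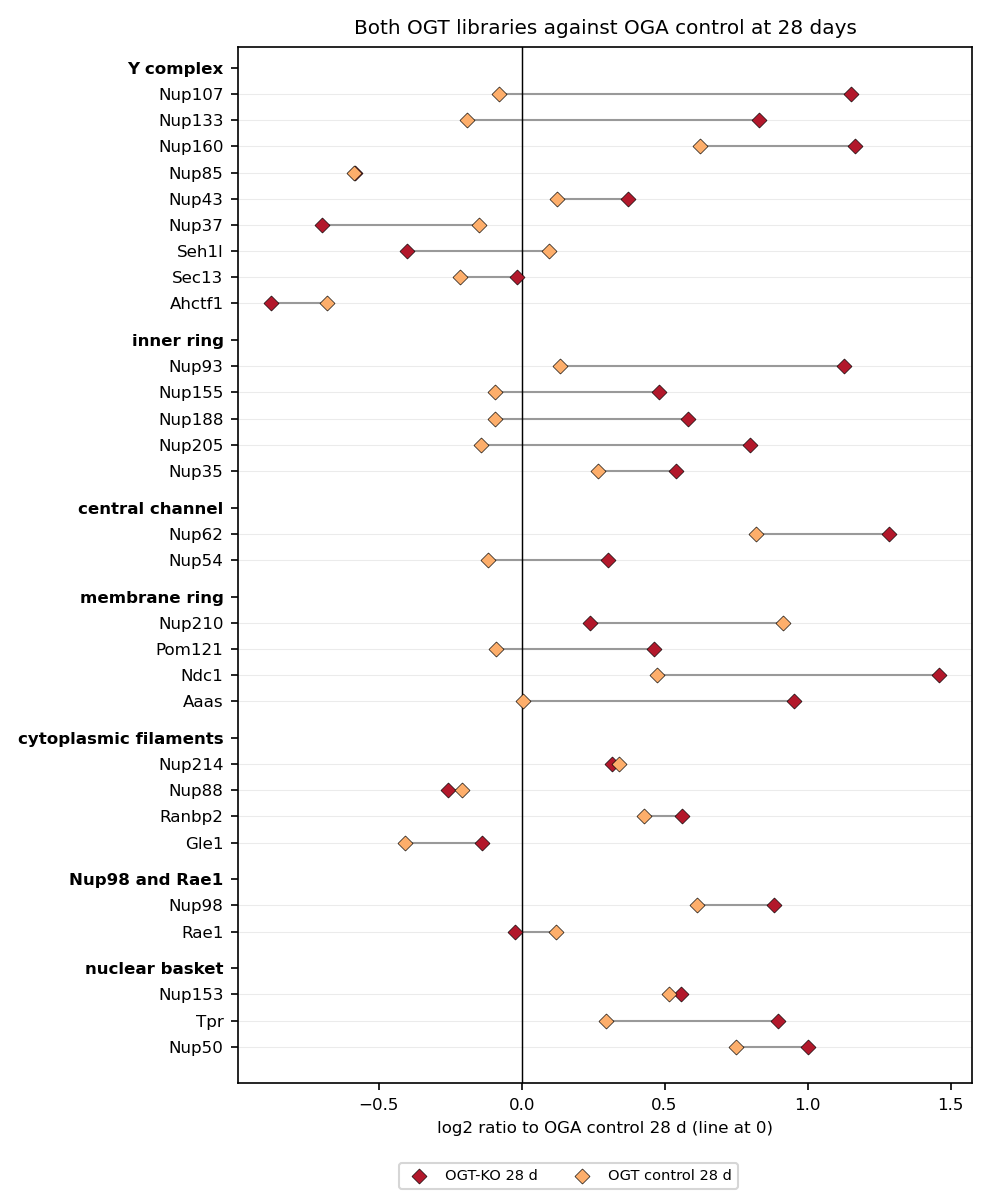
Log2 ratio of OGT-KO (dark diamonds) and of OGT control (light diamonds) to OGA control at 28 days for each nuclear pore gene, with a grey line joining both. For Nup62, Nup98, Nup50 and Nup153 both points lie right of 0, while for Nup107, Nup133, Nup205 and Aaas the OGT-KO point stands at 0.80 to 1.15 and the OGT control point between -0.19 and 0.01.

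With OGA control at 28 days in place of OGT control, 6 pore genes were at least 2-fold higher in OGT-KO and none lower, where 18.2% and 15.6% of all genes were. They were Ndc1 (log2 1.46), Nup62 (1.28), Nup160 (1.17), Nup107 (1.15), Nup93 (1.13) and Nup50, which just reached 2-fold. The median was 0.54. Nup133 stood at 0.83 in that comparison, Aaas at 0.95 and Tpr at 0.90, while the filament genes Nup88 and Gle1 were at -0.26 and -0.14 and the other 2 filament genes, Nup214 and Ranbp2, at 0.32 and 0.56.

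Genes that work with the pore gave calls that depended on the scaling, as did all genes. Of all genes, 26.1% were called higher and 26.6% lower on TMM sizes. By library totals 44.4% were called higher (5334 genes, against 1862 lower). The turn to higher calls is thus not particular to the lists of this paragraph and the next. Of 23 import and export receptors, the importins and exportins that carry cargo through the FG channel, 2 rose and 5 fell on TMM sizes (median log2 0.02), a balance that turned to 13 higher and 2 lower by library totals and was 0 and 1 without the line term. The exportin of precursor microRNA, Xpo5, had 905 counts against 501 (0.58, edgeR adjusted p = 0.0207), and Ipo4 had 659 against 372 (0.55). Among those that fell were Kpna4, an importin alpha (1169 against 1602, -0.73, edgeR adjusted p = 0.00313), and Xpo7 (1088 against 1450, -0.69). Of 7 genes of the Ran cycle, which gives transport its direction, edgeR called 0 (median 0.25), and by library totals 5 higher. DESeq2 called 0, where it called 24.0% of all genes. In edgeR 4 had an unadjusted p under 0.05, and the share of all genes at that threshold is not given here. Rcc1, the nucleotide exchange factor of Ran on chromatin, stood at 0.64 (320 against 169 counts), Ranbp1 at 0.39, Nutf2, the carrier of Ran into the nucleus, at -0.62 and Rangrf at -0.93.

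Of 19 mRNA export genes 2 rose and 2 fell on TMM sizes (median 0.16), against 12 higher and 2 lower by library totals. The helicase Ddx39a had 1043 against 399 counts (1.11, edgeR adjusted p = 0.00179) and Pcid2, of the export complex TREX-2, 718 against 336 (0.82). Eny2, a small subunit of the same complex, fell (523 against 712, -0.72), and so did Chtop (1123 against 1485, -0.68). Of 15 genes of the nuclear lamina and envelope 7 rose and 2 fell (median 0.22), and by library totals 8 rose and none fell. Lmna, the lamin of differentiated cells, had 3363 against 1224 counts (1.18, edgeR adjusted p = 0.0007) and Lmnb1, a lamin of all cells, 283 against 123 (0.92). The lamin B receptor Lbr (0.84) and Sun1 (0.64) rose too. Without the line term 1 of these lamina genes rose and none fell. Nup62cl, a relative of Nup62 outside the member list, had 101 counts in OGT-KO against 2 in OGT control and 7 to 8 in the OGA libraries (log2 4.49, edgeR adjusted p = 0.00174). Tmem33 and Nup42 (Nupl2 in the annotation), the other 2 genes with a row among further nucleoporin genes, did not pass (-0.20 and -0.15). Nup42 is outside the member list, so the counts of subcomplexes and FG genes above do not include it.

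**Figure D4:**
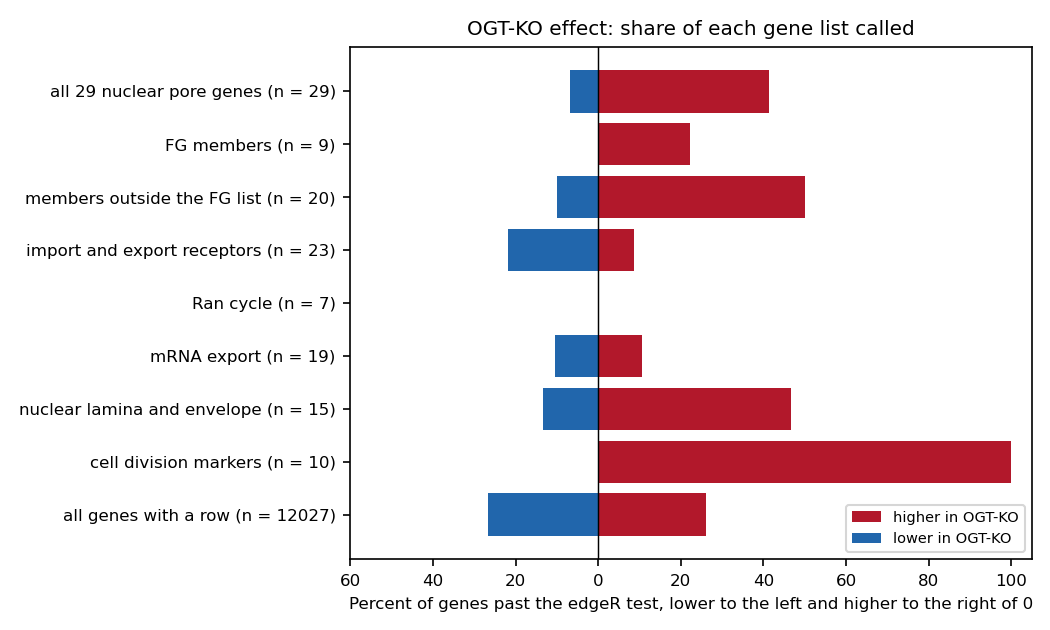
Percent of the genes of each list that passed the edgeR test of the OGT-KO effect, drawn to the left for lower and to the right for higher in OGT-KO, on TMM sizes. The pore genes reach 41.4% higher and 6.9% lower, against 26.1% and 26.6% of all genes, and 10 of 10 cell division markers are higher; by library totals no pore gene is called lower.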

How the data were processed

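Messenger RNA libraries (Tecan Universal Plus mRNA-seq, per the labels' protocols) were sequenced from 6 groups of whole liver, 1 library each, with RNA of 3 mice pooled per library, run in 2 lanes. The deposited table holds raw counts per Ensembl gene, made by the authors with STAR, Subread and edgeR on build mm39, per the submitters' processing notes, without versions or settings; its filter on rows is not stated, and every row has at least 28 counts over the OGA libraries. A deposited table of normalised values was not used. Identifiers were given symbols through GENCODE M21 and RefSeq synonyms (12019 of 12027 matched).

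Ratios are of CPM on TMM effective sizes with a prior count of 2, with 95% Clopper-Pearson intervals of the conditional share, which cover counting error only. The test was edgeR 4.0.16 (R 4.3.3) glmQLFTest over all 6 libraries with terms for line, day, OGA-KO and OGT-KO, filterByExpr (12026 genes) and an adjusted p under 0.05; DESeq2 1.42.0, other scalings, no filter, no line term and other thresholds were alternatives. P-values of this edgeR test rest on the spread left in the OGA libraries (1 residual degree of freedom), with information shared over genes. They measure no spread between replicates of a group, and none within the OGT pair. The members, gene lists and the rule for named genes (every FG member, the 6 highest and lowest ratios in OGT-KO, the 3 highest and lowest in each OGA-KO pair, and up to 4 genes of each other list) were chosen with earlier results of these data known.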

Additional observations from a re-analysis of the deposited data

Results flagged for a closer look

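Sec13, a subunit of both the Y complex and a vesicle coat, had a log2 ratio of OGA-KO to control of -0.14 at 14 days (1357 against 1354 counts) and of 0.14 at 28 days (1333 against 1279 counts). It was singled out because the counting intervals of both pairs lay on opposite sides of 0. The difference between the times was not tested, since each time has 1 pair of libraries.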

How the results depend on the processing

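RLE factors and no filter on low counts kept all 14 OGT-KO calls among the pore genes, in the same direction. The count of 14 was 1 by the DESeq2 Wald test (Tpr) and 7 without the line term, and 20 by library totals, all higher, of which 12 were shared; 59.8% of all genes were called there. The contrast of OGT-KO and OGA-KO effects, 13 calls, gave 20 by library totals, 0 by DESeq2 and 6 without the line term, where 51.6%, 17.1% and 23.0% of all genes were called. The 2 genes past 2-fold in OGT-KO were 7 by library totals and 1 with a prior count of 10. The share of all genes past 2-fold under these 2 settings is not given here, and library totals raise the median of all genes by 0.36. There were 9 at 1.5-fold, where 47.0% of all genes passed in either direction. Against OGA control at 28 days 6 were 2-fold higher, where 18.2% of all genes were. The median of all 29, 0.27, was 0.64 by library totals and 0.54 against OGA control. At 14 days of OGA-KO 1 gene (Nup93) passed 1.5-fold. By edgeR, 4 uncalled genes changed sign by library totals, Ahctf1 (0.18), Nup214 (0.35), Nup88 (0.32, then past the threshold at an adjusted p = 0.0493) and Rae1 (0.23), and 2 without the line term, Nup85 (-0.36) and Nup214 (0.13). Over the alternatives the adjusted p ranged from 0.0493 to 0.955 for Nup88, 0.00748 to 0.779 for Nup210, 0.0163 to 0.377 for Seh1l and 0.00103 to 0.0497 for Tpr. The lower log2 values of Seh1l and Nup210 lost their calls by library totals, without the line term and by DESeq2. The cause was not tested. The OGA-KO count of 0 was 0 under each alternative run. No paired analysis was possible because each group has 1 library and the labels carry no replicate numbers, and no replicate could be left out; the day term already compares OGA-KO with its control within each day. Low counts limit Nup35, Nup37 and Nup43, whose intervals span a log2 of more than 0.8. They limit Nup107 too, with 80 counts in OGT control and 79 to 113 in the OGA libraries. Its OGA-KO intervals were also that wide (-0.92 to -0.09 at 14 days and -0.65 to 0.25 at 28 days).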

Other observations

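Summed over the 29 genes, nuclear pore transcripts made up 959 CPM in OGT-KO against 795 CPM in OGT control, 678 against 705 CPM in OGA-KO and control at 14 days, and 686 against 712 CPM at 28 days. By library totals the sums were 1311 against 840 CPM in the OGT pair, 625 against 652 CPM at 14 days and 617 against 643 CPM at 28 days. The basket genes had 256 CPM in OGT-KO, against 192 CPM in OGT control and 137 to 147 CPM in the OGA libraries, and the channel genes 63.7 CPM against 46.6 CPM and 31.1 to 35.6 CPM. The Y complex genes summed to 177 CPM in OGT-KO, against 170 CPM in OGT control and 182 to 203 CPM in the OGA libraries. These sums are weighted towards genes with long or abundant transcripts, and they were not tested.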
